A study of Homo sapiens with 30 samples.

Results

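Rh30 is an established human cell line of alveolar rhabdomyosarcoma, a childhood tumour of muscle-like cells, and it carries the PAX3-FOXO1 fusion gene. The comparison described here sets clone 4 of that line against clone 12, with 2 libraries of RNA sequencing each, so 4 of the 30 samples of the series. In both clones an FKBP tag was placed on PAX3-FOXO1, and both received DMSO, the solvent of the degrader dTAG, and no degrader, per the labels. Cells of both clones were grown in RPMI-1640 with the serum substitute FetalPlex. Both clones carry the same tag, so the comparison is between 2 clones of the same labelled genotype and shows no effect of the tag. Clone 10 and clone 11, tagged and treated in the same way with 2 libraries each, entered the fit to share the estimate of the spread and serve as reference levels. All genes were compared: 23261 are in the table and 13879 had enough counts to be tested. Nothing in the labels says whether the 2 libraries of a clone came from separate cultures, so the p-values measure the spread between libraries, which may be technical.

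PAX3-FOXO1 joins the DNA-binding part of PAX3, a transcription factor of the embryonic muscle lineage, to the activating part of FOXO1. It drives genes of growth factor receptors, of early development and of the myogenic program, while terminal muscle differentiation stays low. Clones grown from single cells of a tumour line can also differ in chromosome content and in which genes are silenced, independent of any engineered change.

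Total counts were 19770435 and 19556442 in the clone 4 libraries and 18294367 and 21912607 in those of clone 12. Normalised counts below are counts scaled to a common library size. The 2 libraries of clone 4 lay further apart than those of clone 12: 341 of 11581 genes with a mean of at least 50 counts differed by at least 2-fold between the libraries of clone 4, against 114 in clone 12. In clone 4 that gap followed transcript length, with a Spearman correlation across genes of 0.56 between the log2 difference of its libraries and the length, against 0.06 in clone 12. In clones 10 and 11 this correlation was 0.39 and 0.25. The difference between clone 4 and clone 12 also followed length, at 0.27. It was 0.39 with library 1 of clone 4 alone and 0.07 with library 2 alone. Genes are not independent replicates, so these correlations describe the libraries. Library 1 of clone 4 therefore reads higher for long transcripts, and results that rest on it are given without it.

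The 2 clones differed at many genes. A call needed an adjusted p under 0.05 (edgeR's quasi-likelihood test with Benjamini-Hochberg adjustment over all 13879 genes), and 3405 genes, 24.5% of those tested, passed. Of these, 1737 (12.5%) were higher in clone 4 and 1668 (12%) were higher in clone 12. At least 2-fold differences among the calls numbered 896 (6.46%) on the side of clone 4 and 863 (6.22%) on that of clone 12. The other pairs of tagged clones gave 19% between clones 4 and 10, 29.5% between 4 and 11, 35.8% between 10 and 11, 29.1% between 10 and 12 and 21.7% between 11 and 12, so this pair lay within the range of the others. The counts moved when a clone was left with 1 library: 1074 and 998 without library 1 of clone 4, 2287 and 2006 without library 2 of clone 4, 795 and 877 without library 1 of clone 12, and 707 and 803 without library 2 of clone 12, higher in clone 4 and in clone 12 respectively. Without library 2 of clone 12 the 2-fold calls higher in clone 4 numbered 597.

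**Figure D1:**
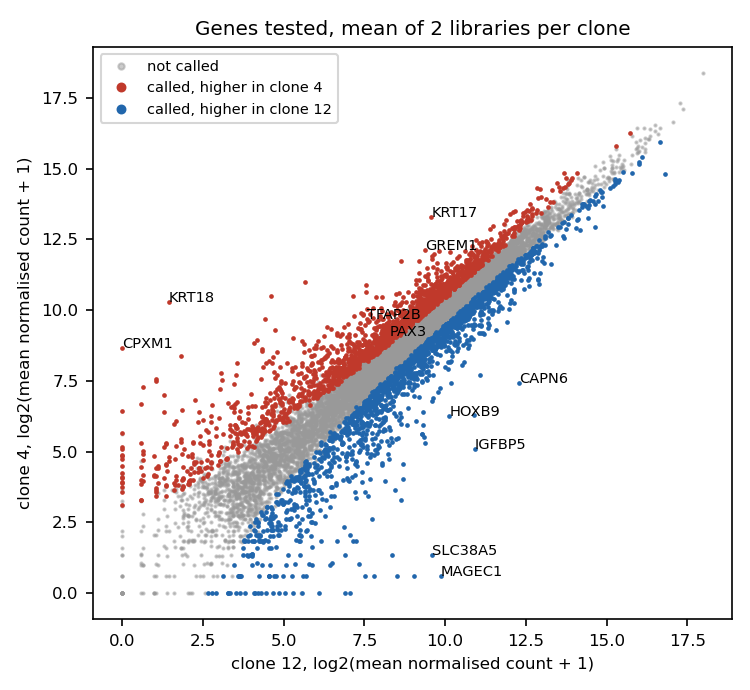
Each point is a gene, placed by its mean normalised count over the 2 libraries of clone 12 (x axis) and of clone 4 (y axis), both as log2 of the mean plus 1. Red and blue points are the 1737 genes called higher in clone 4 and the 1668 called higher in clone 12; KRT18 and CPXM1 lie near 0 in clone 12, and MAGEC1 and SLC38A5 near 0 in clone 4.

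The parent genes of the fusion were not called. PAX3 stood at 775.9 and 315.0 normalised counts in clone 4 and at 302.3 and 319.8 in clone 12. The groups overlapped, since library 2 of clone 4 lay among the values of clone 12, and the log2 difference of 0.81 ± 0.33 (SE) had an adjusted p of 0.096 in edgeR. FOXO1 was at 1181.0 and 836.7 against 603.5 and 622.1, without overlap, with a log2 difference of 0.72 ± 0.25 and an adjusted p of 0.0591. Reads of the fusion transcript and of the wild-type genes are both counted under these names and cannot be told apart here. The PAX3 difference rested on library 1 of clone 4: without it the log2 difference was 0.02, and without library 2 it was 1.32 (adjusted p 0.000806). For FOXO1 these values were 0.45 and 0.95. DESeq2 on the same libraries passed both genes, with adjusted p of 0.0479 for PAX3 and 0.0251 for FOXO1, and over all alternatives the adjusted p ran from 0.000806 to 0.973 for PAX3 and from 0.0034 to 0.29 for FOXO1.

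Muscle markers had similar summed levels in both clones, although single markers differed. Of 12 rhabdomyosarcoma markers 4 were called higher in clone 4 and 1 higher in clone 12, 41.7% beside 24.5% of all tested genes. Their summed normalised counts were 131626.8 and 154250.6 in clone 4 and 132783.6 and 127389.6 in clone 12. None of the 12 was under 10 counts in all 4 libraries. MYOG, the transcription factor that starts terminal muscle differentiation, was at 10445.1 and 12904.4 in clone 4 and 14660.8 and 12181.1 in clone 12, which overlap. FGFR4, a receptor tyrosine kinase that is a known fusion target, also overlapped, at 17785.4 and 20438.1 against 20281.0 and 26094.8, and was not called. MYOD1, the master regulator of the myogenic lineage, was called higher in clone 4 by a log2 difference of 0.53 ± 0.17 (adjusted p 0.041). Among the other myogenic transcription factors EYA1 and MEF2C were called higher in clone 4, with log2 differences of 1.20 and 1.01. In all, 4 of 19 were called higher in clone 4 and 1, PITX3, higher in clone 12, so 26.3% of the list was called beside 24.5% of all tested genes. Leaving out 1 library gave 1 (without library 2 of clone 12) to 5 and 0 to 1.

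Contractile genes were called in equal number on both sides. Of 66 tested genes of muscle contraction and differentiation, 15 were higher in clone 4 and 15 higher in clone 12, together 45.5% of the list beside 24.5% of all tested genes. Their median log2 difference was -0.08, beside 0 over all genes, and its sign changed when 1 library was left out. CSRP3, a Z-disc protein, was at 234.6 and 272.1 in clone 4 and at 18.3 and 20.4 in clone 12. XIRP1, an actin-binding protein of muscle, was at 417.0 and 252.8 against 44.5 and 67.8. Both were higher in clone 4 without overlap. The embryonic and atrial myosin light chain MYL4 went the other way, at 531.3 and 786.4 against 2495.2 and 2640.7. Desmin (DES), the muscle intermediate filament, was higher in clone 12, with a log2 difference of -0.86 and 13321.3 and 16369.1 against 28570.9 and 25347.7. Leaving out 1 library gave 9 (library 1 of clone 12) to 13 genes higher in clone 4 and 6 (library 2 of clone 12) to 18 higher in clone 12.

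The largest differences were close to on and off. CPXM1, a secreted carboxypeptidase-like protein, had 440.1 and 358.9 normalised counts in clone 4 and no read in either library of clone 12. Against a floor of 3 counts per library, it was at least 126-fold higher in clone 4. It was also at or near 0 in clones 10 and 11, where the highest library had 1.0. KRT18 and KRT8, the paired keratins of simple epithelia, differed together. KRT18 was at 1082.7 and 1387.4 in clone 4 and at 3.4 and 0 in clone 12, a ratio of counts of 782 with a 95% counting interval of 267 to 3797. KRT8 was at 1288.2 and 1568.5 against 17.1 and 30.0, a log2 difference of 5.89 ± 0.33. Clone 10 had KRT18 at 770.5 and 832.2 but KRT8 at only 160.7 and 131.2, and clone 11 had no KRT18 read. Another keratin, KRT17, was at 9885.7 and 9934.6 in clone 4 and 734.8 and 785.9 in clone 12. Clone 11 stood above clone 4 for KRT17, at 21724.9 and 31476.2. Keratin genes have near-identical pseudogenes, and no source used here gives how reads with several matches were counted, so their levels are uncertain.

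**Figure D2:**
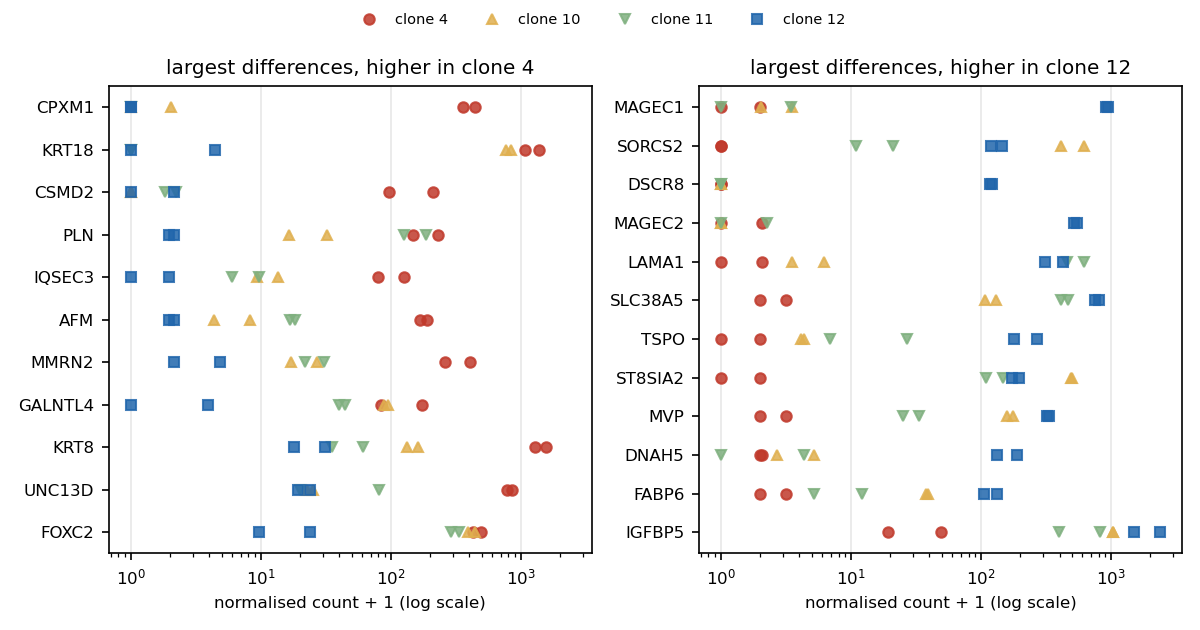
Normalised count plus 1 (x axis, log scale) in each of the 8 libraries for 23 of the 24 genes with the largest difference, 12 each way, among called genes whose mean was 50 or more. Red circles (clone 4) and blue squares (clone 12) do not overlap for any gene shown; clone 10 and clone 11 lie near clone 4 for some genes and near clone 12 for others.

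Other genes of that size in clone 4 had varied roles. UNC13D, a factor of vesicle release, was at 855.1 and 787.4 against 22.8 and 18.4, and clone 10 was as low as clone 12. FOXC2, a forkhead factor of mesoderm, was at 493.2 and 428.5 against 22.8 and 8.7, while clones 10 and 11 lay between 287.0 and 445.0. FOXC2 was thus low in clone 12 alone among these 4 clones, and UNC13D was high in clone 4. Phospholamban (PLN), the regulator of the calcium pump of muscle, had 146.4 and 231.4 normalised counts in clone 4 and 2 reads in all in clone 12.

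Clone 12 had its own set of genes that clone 4 lacked. MAGEC1, a cancer-testis antigen gene normally active in the germ line, was at 943.5 and 907.0 in clone 12 and at 1.0 and 0 in clone 4, with 1763 reads against 1. MAGEC2, of the same family, was at 545.4 and 512.6 against 0 and 1.1. In clones 10 and 11 neither gene passed 2.5. Of 114 cancer-testis antigen genes 9 were tested, and 6 of these lie in stretches of neighbouring genes that differ together, described below. By edgeR 4 were higher in clone 12 and 0 in clone 4, beside 12% and 12.5% of all tested genes. DESeq2 and an unadjusted p under 0.05 gave the same counts. The 4 were MAGEC1, MAGEC2, CTAG2 and MAGEB1, the last at 401.6 and 401.2 against 140.4 and 121.1. DSCR8 followed the same pattern, at 115.2 and 120.2 in clone 12 and without a read in clones 4, 10 and 11, at least 37.8-fold higher in clone 12 than in clone 4.

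The RefSeq promoters (GRCh38.p14, 250 bases before to 50 after the start) of the MAGEC pair, present in clone 12 and nearly silent in clone 4, and of KRT8, with the opposite order, are shown with every CG dinucleotide in capitals, the site of DNA methylation. KRT18 was not matched.
MAGEC1, chrX:141903644-141903943, plus strand: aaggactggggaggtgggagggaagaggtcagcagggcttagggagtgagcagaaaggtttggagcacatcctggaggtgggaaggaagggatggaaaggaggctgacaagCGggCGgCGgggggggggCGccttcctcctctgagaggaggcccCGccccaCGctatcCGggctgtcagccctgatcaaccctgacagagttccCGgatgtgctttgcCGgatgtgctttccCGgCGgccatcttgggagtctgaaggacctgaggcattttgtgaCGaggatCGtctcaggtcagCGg
MAGEC2, chrX:142205241-142205540, minus strand: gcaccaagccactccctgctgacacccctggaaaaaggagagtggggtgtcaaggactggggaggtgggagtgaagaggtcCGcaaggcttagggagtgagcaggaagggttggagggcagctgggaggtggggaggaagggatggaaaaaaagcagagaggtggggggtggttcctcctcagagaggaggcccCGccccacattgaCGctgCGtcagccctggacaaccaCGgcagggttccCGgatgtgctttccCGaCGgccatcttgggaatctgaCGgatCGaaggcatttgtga
KRT8, chr12:52926420-52926719, minus strand: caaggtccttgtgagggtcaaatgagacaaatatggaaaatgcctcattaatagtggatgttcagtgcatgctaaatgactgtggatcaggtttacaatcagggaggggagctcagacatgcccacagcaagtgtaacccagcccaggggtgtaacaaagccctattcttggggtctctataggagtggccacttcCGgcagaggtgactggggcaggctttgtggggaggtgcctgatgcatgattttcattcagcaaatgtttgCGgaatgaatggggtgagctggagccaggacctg
The search for CG, which reads the same on both strands, found 14 in the MAGEC1 promoter, 10 in that of MAGEC2 and 2 in that of KRT8. The median over 35116 promoters of the same length was 14, and 96% hold at least 1. Over the promoters of the tested genes the median was 25, above all 3 of those printed. The interval printed for KRT8 stands low, since 18.2% of promoters have at most 2. Whether these cells use the printed starts, or other starts of the same genes, was not tested. No methylation value was used here, so these letters describe the promoters and not their state.

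Among the other genes much higher in clone 12 were single genes of the cell surface and the matrix, picked by the size of their difference. LAMA1, the alpha chain of the laminin of early basement membranes, was at 306.9 and 422.5 in clone 12 and had 1 read in clone 4. ST8SIA2, an enzyme that adds polysialic acid to NCAM, was at 195.1 and 170.6 against 1.0 and 0, with 492.9 and 501.0 in clone 10. The amino acid transporter SLC38A5 was at 798.6 and 751.0 against 1.0 and 2.1. For these genes clone 4 stood apart as the clone without the transcript, apart from LAMA1, which was also low in clone 10 at 2.5 and 5.2. IGFBP5, an IGF-binding protein, was at 1494.6 and 2369.3 against 48.1 and 18.2, and COL1A1, the main fibrillar collagen chain, at 2458.7 and 1852.8 against 219.5 and 191.8.

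Extracellular matrix genes moved in both directions. Of 48 tested, 20 were higher in clone 4 and 10 in clone 12, beside 12.5% and 12% of all tested genes. COL1A1, COL15A1 and COL16A1 were higher in clone 12, with log2 differences of -3.39, -4.60 and -3.87 (clone 4 minus clone 12). Smooth muscle actin (ACTA2) was higher in clone 4 by 3.39 ± 0.26 and versican (VCAN) by 1.89 ± 0.27. VCAN shows the spread of clone 4, at 2920.3 and 1402.4. The count on the side of clone 4 depended on single libraries, at 13 without library 1 of clone 4, 13 without library 1 of clone 12 and 10 without library 2 of clone 12.

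Published targets of PAX3-FOXO1 stood mostly on the side of clone 4. The list of 32 was collected from general knowledge of the fusion, and 17 were higher in clone 4 against 3 in clone 12, beside 12.5% and 12% over all genes, with a median log2 difference of 0.72. TFAP2B, a transcription factor used to mark fusion-positive tumours, was at 849.1 and 801.4 in clone 4 and at 184.8 and 193.8 in clone 12 (log2 difference 2.12 ± 0.17, adjusted p 2.6e-05). P-cadherin (CDH3) was at 456.1 and 370.7 against 70.7 and 75.6. The BMP antagonist GREM1 was at 5282.2 and 3719.7 against 834.0 and 499.1. The groups did not overlap for any of these 3 genes, and clones 10 and 11 lay above clone 12 for each.

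FOXF1, BMP5 and NOS1, singled out after their values were seen, showed the same order. FOXF1, a forkhead factor of lateral mesoderm, was at 444.1 and 325.7 against 61.6 and 45.5, BMP5, a ligand of the BMP pathway, at 765.9 and 935.3 against 192.8 and 238.4, and the neuronal nitric oxide synthase NOS1 at 5348.4 and 3322.2 against 1540.2 and 1581.5. The exceptions were RASSF4, a Ras-association protein, at 357.9 and 401.8 against 1162.6 and 1065.0, FAM20C and ABAT. MYCN was not called, at 2485.2 and 2445.9 in clone 4 and 2815.8 and 2979.9 in clone 12. Leaving out 1 library gave 12 to 20 targets higher in clone 4 and 2 to 4 higher in clone 12.

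**Figure D3:**
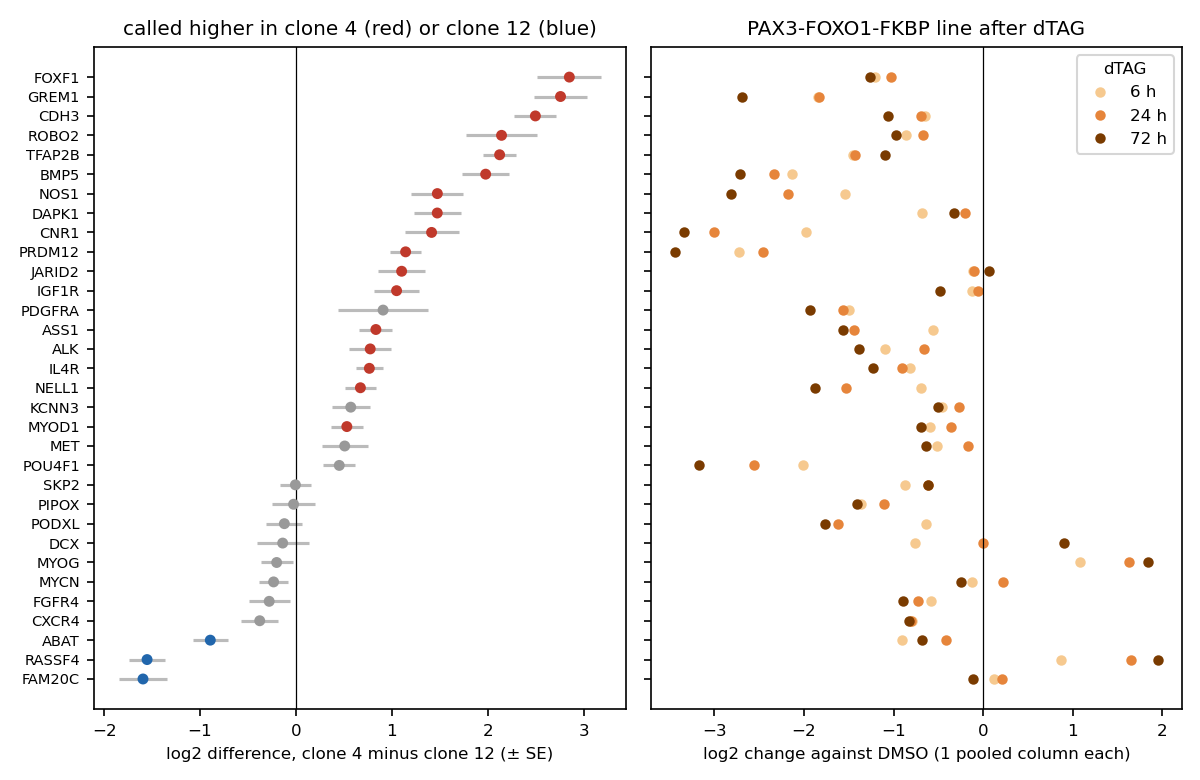
Left, log2 difference of clone 4 minus clone 12 with its SE for the 32 published PAX3-FOXO1 targets, coloured where called (17 red, 3 blue); right, log2 change of the same genes in the PAX3-FOXO1-FKBP line after 6, 24 and 72 h of dTAG against DMSO, 1 pooled column each. Of the 17 genes higher in clone 4, 12 were at least 2-fold lower at 72 h, beside 3.05% of all genes. Of the 3 higher in clone 12, RASSF4 was above 0 at all 3 times, ABAT was below 0 at all 3, and FAM20C was below 0 at 72 h only. Targets that were not called changed too, such as POU4F1 at -3.18 and MYOG at 1.84 at 72 h.

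Receptor tyrosine kinases, which carry growth factor signals into the cell, leaned the same way. Of 36 tested, 16 were higher in clone 4 and 0 in clone 12 by edgeR (18 and 0 at an unadjusted p under 0.05), beside 12.5% and 12% of all genes, and the median log2 difference was 0.73. The ephrin receptor EPHB1 was at 788.0 and 473.5 against 24.0 and 27.1, and EPHB2, of the same family, at 3713.3 and 3124.1 against 771.3 and 389.6. TIE1, known from endothelium, was at 251.6 and 248.6 against 28.5 and 28.1. Many receptors have long transcripts, and 9 were higher in clone 4 and 1 in clone 12 without library 1 of clone 4, with a median of 0.28. With a correction for length and GC content, added after the data were seen, 16 and 1 were called. Without library 2 of clone 12 they were 8 and 0. DESeq2 called 16 and 0.

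HOX genes give position along the body axis. Of 30 tested, 12 were higher in clone 12 and 0 in clone 4 by edgeR, beside 12% and 12.5% of all tested genes, with a median log2 difference of -0.39. DESeq2 gave the same counts, and an unadjusted p under 0.05 gave 14 and 1. HOXB9 was at 74.2 and 76.1 in clone 4 and 982.3 and 1254.9 in clone 12. HOXD8 was at 21.1 and 16.1 against 182.5 and 159.9, and HOXC6 at 58.1 and 62.1 against 230.5 and 224.8. For all 3, clones 10 and 11 lay above clone 4. Of the called genes 7 came from the B cluster, 2 from the C cluster and 3 from the D cluster, and none of the A cluster was called. Without library 1 of clone 4, or without library 2 of clone 12, 8 were called, and with the correction for length and GC content 2 were called higher in clone 4.

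Of 13 antigen presentation genes tested, 4 were higher in clone 12 and 0 in clone 4 by edgeR (9 and 0 at an unadjusted p under 0.05), 30.8% of the list beside 24.5% of all tested genes. NLRC5, the transactivator of HLA class I genes, was at 50.1 and 60 in clone 4 and 341.1 and 213.2 in clone 12. B2M, the shared light chain of class I molecules, was at 5352.4 and 7154.5 against 13104.6 and 12398.1. HLA-C was also called, on 0 reads in clone 4 and 10 in clone 12, too few for a fold. The count was 2 without library 1 of either clone and 6 without library 2 of clone 4, and DESeq2 gave 3 and 0.

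The lists of metabolism and growth stand beside the 12.5% and 12% of all tested genes called higher in clone 4 and in clone 12. Of 24 cholesterol synthesis genes, 9 were higher in clone 4 and 1, NSDHL, higher in clone 12, so 41.7% were called. SQLE, the squalene epoxidase of the pathway, was at 2307.8 and 1952.0 against 985.8 and 894.4, while NSDHL, a sterol dehydrogenase, was at 733.8 and 873.1 against 2249.9 and 2182.3. Without library 2 of clone 12, 5 were called higher in clone 4. Of 30 S phase genes 8 were higher in clone 4 and 1 in clone 12, 30.0% of the list. UHRF1, which recruits the maintenance DNA methyltransferase, was at 18367.9 and 14181.4 against 8017.2 and 7957.9, and DNMT1, that methyltransferase, at 8325.8 and 6865.2 against 4512.3 and 4108.8. UHRF1 and DNMT1 differed about 2-fold between the clones, with no overlap. Without library 1 or library 2 of clone 12, 3 of the S phase genes were called higher in clone 4. Of 29 genes of ribosome biogenesis and MYC response, 1 was higher in clone 4 and 7 in clone 12. These 27.6% lie near the 24.5% of all tested genes, and those higher in clone 12 numbered 2 without library 1 of clone 4, 11 without library 2 of clone 4, 1 without library 1 of clone 12 and 2 without library 2 of clone 12. Of 24 ATF4-responsive genes 0 were higher in clone 4 and 4 in clone 12 by edgeR, PHGDH, CEBPB and MTHFD2 among them, against 0 and 7 by DESeq2, 1 and 7 at an unadjusted p under 0.05, and 0 and 2 without library 2 of clone 12. By edgeR 16.7% of that list was called, below the share of all tested genes.

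Signalling genes changed member by member. In the Notch pathway 2 of 26 were higher in clone 4 and 5 in clone 12, so 26.9% were called, near the 24.5% of all tested genes. The ligand JAG1 was at 435.1 and 206.8 against 86.7 and 66.9, whereas the ligand DLL1 and the target HEY1 were higher in clone 12, with log2 differences of -1.22 and -1.60. Leaving out 1 library gave 1 to 5 and 2 (without library 1 of clone 12) to 5. In the TGF-beta and BMP pathway 10 of 37 were higher in clone 4 and 6 in clone 12, 43.2% of the list, and with the correction for length and GC content 11 and 11. Besides GREM1 and BMP5, the ligand BMP6 and the latent TGF-beta binding protein LTBP2 were higher in clone 4, by log2 differences of 3.55 and 3.76. Leaving out 1 library gave 7 to 13 and 4 to 6 in this pathway, with the lowest counts without library 2 of clone 12. DUSP4, a phosphatase that ends ERK signals, was higher in clone 12 at 459.8 and 806.3 against 56.1 and 64.3, while DUSP6, of the same family, was higher in clone 4 at 2077.2 and 1676.7 against 399.3 and 870.2.

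Markers of other cell types were set beside these results. Of 21 epithelial markers 12 were tested. By both edgeR and DESeq2, 5 were higher in clone 4 and 0 in clone 12 (5 and 2 at an unadjusted p under 0.05). By edgeR 41.7% of those tested were called, beside 24.5% of all tested genes. The summed normalised counts were 13044.6 and 13718.6 in clone 4 and 1121.5 and 1277.2 in clone 12, of which KRT17, KRT8 and KRT18 made up most. Clone 10 had sums of 6058.9 and 6682.6, and clone 11 stood above clone 4 at 22461.9 and 32252.0. E-cadherin (CDH1) had 0 and 2 reads in clone 4 and none in clone 12, KRT5, KRT14, KRT19 and ESRP1 had none in any of the 4 libraries, and EPCAM was not called. Of 28 blood markers 18 were under 10 counts in all 4 libraries, with PTPRC, the pan-leukocyte marker, at 0 and 1 reads in clone 4 and 0 and 1 in clone 12. Of the blood markers 8 were tested, with 2 higher in clone 4 and 3 in clone 12, 62.5% beside 24.5% of all tested genes. Summed counts of the list were 6013.0 and 7156.6 against 3492.4 and 5994.6, carried by LAPTM5, ITGB2 and CORO1A. Of 14 endothelial markers 9 were tested, with 4 higher in clone 4 and 2 in clone 12. These 66.7% stand beside 24.5% of all tested genes. ENG made up most of the sums of 5479.7 and 5442.5 against 2171.2 and 1986.6. ERG and PLVAP did not pass 2 reads.

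Differences of neighbouring genes went together over long stretches. The tested genes were put in RefSeq gene order, which placed 13378 of them, and the median log2 difference was taken over every 25 neighbours. Stretches with an absolute median of at least 0.4 and at least 20 of 25 genes on the same side were merged into 67 runs, 36 higher in clone 4 and 31 higher in clone 12, which hold 3790 genes, 28.3% of those placed. Of the 3314 called genes that were placed, 1339 (40.4%) lay in a run of their own direction, 130 in a run of the opposite direction and 1845 outside. Within runs 35.3% of genes were called on the side of the run, and 19.2% of genes outside were called on either side. The runs were chosen from this same difference, so these counts describe them and test nothing. DNA copy number was not measured here, and whether it differs in these stretches was not tested.

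The largest shift lay at the end of the X chromosome. From CAPN6 to TMLHE, 144 neighbouring tested genes had a median log2 difference of -1.26, with 130 below 0, 13 above 0, and 95 called higher in clone 12 against 3 in clone 4. Among the genes with a mean of at least 50 counts, the median log2 deviation from the mean over the 8 libraries was -0.70 and -0.59 for clone 4, -0.12 and -0.11 for clone 10, 0.27 and 0.26 for clone 11, with clone 12 at 0.42 and 0.45. Clone 4 stood lowest and clone 12 highest, and the 2 libraries of each clone lay close together. CAPN6, a calpain-related protein, was at 189.5 and 148.9 in clone 4 and 4794.1 and 5294.9 in clone 12. ELF4, an ETS factor, was at 12 and 5.4 against 431.3 and 368.2, and ARHGEF6, a guanine nucleotide exchange factor, at 135.3 and 99.6 against 822.6 and 746.2. The rest were mostly moderate: DKC1, a pseudouridine synthase of ribosome and telomerase assembly, was at 3781.4 and 3694.0 against 8117.6 and 8656.6. MAGEC1, MAGEC2 and L1CAM lie in the same run, and so does NSDHL, the cholesterol synthesis gene that was higher in clone 12. Leaving out any of the 4 libraries gave medians of -1.33 to -1.23.

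A second stretch of the X chromosome went the other way. From GPR173 to SRPX2, 98 genes had a median of 0.62, with 46 called higher in clone 4 and 7 in clone 12. FGD1, a Cdc42 exchange factor, was at 812.0 and 781.0 against 263.6 and 222.9, and MAGED2 at 5525.8 and 5278.5 against 2400.5 and 2113.5. Clone 12 stood apart from the other 3 clones in this stretch, at -0.40 and -0.40, with clone 4 at 0.11 and 0.08, clone 10 at 0.11 and 0.09 and clone 11 at 0.37 and 0.31.

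On chromosome 20, 127 genes from DEFB126 to ASXL1 had a median of 0.74, with 76 called higher in clone 4 and 5 in clone 12. Clone 4 was highest at 0.43 and 0.50, clone 10 near the mean at 0.03 and 0.02, and clones 11 and 12 lower, at -0.14 and -0.13 and at -0.28 and -0.30. CPXM1 lies in this run, together with the neuroendocrine factor INSM1, at 323.8 and 401.8 against 41.1 and 55.2, and XRN2, an RNA exonuclease, at 5787.5 and 4704.3 against 2118.7 and 2146.5. SNPH, a mitochondrial anchor of axons, was an exception at 41.1 and 38.6 against 326.3 and 324.6.

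**Figure D4:**
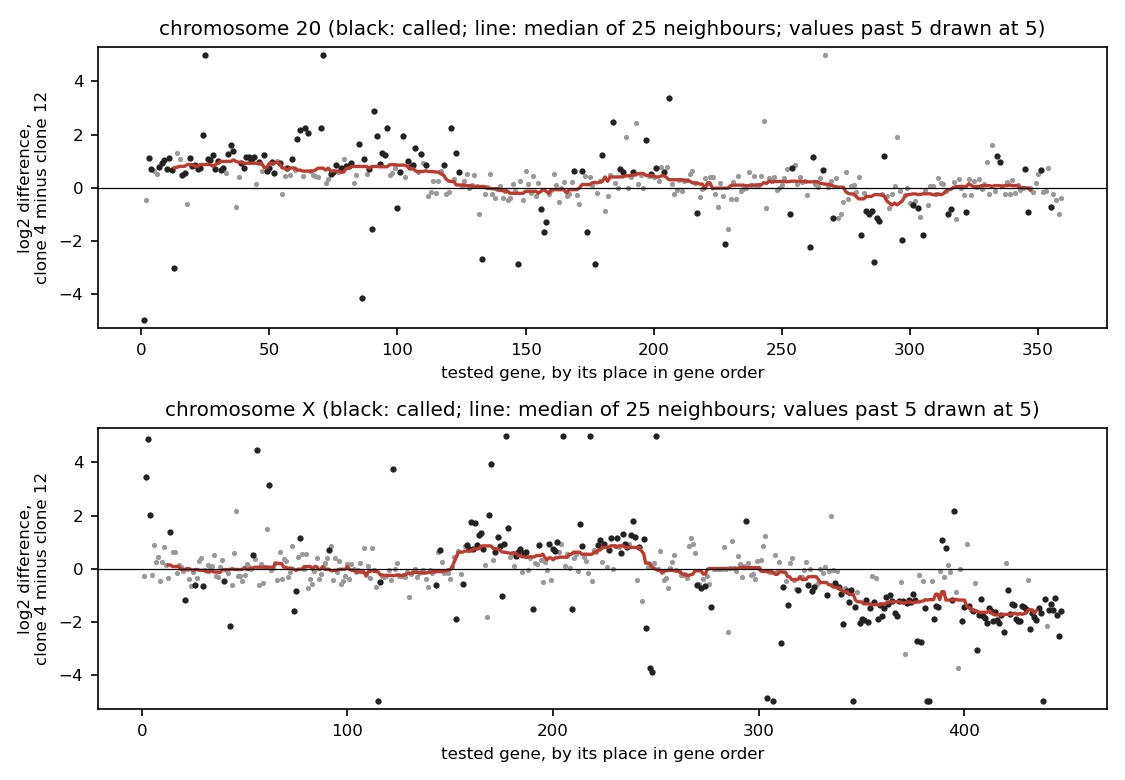
Log2 difference of clone 4 minus clone 12 for each tested gene of chromosome 20 (top) and the X chromosome (bottom), by its place in gene order, with the running median over 25 genes as a red line and called genes in black. The line lies above 0 over the first part of chromosome 20 and in the middle of the X chromosome, and below 0, at a run median of -1.26, over the end of the X chromosome.

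Medians were smaller in the other long runs. On chromosome 5, 173 genes from CDK7 to C5orf56 had a median of 0.50 and 61 were called higher in clone 4, VCAN among them, while 76 genes from SPINK5 to FBXW11 had -0.58 with 31 higher in clone 12. On chromosome 6, 2 adjoining runs of 128 and 171 genes had medians of 0.50 and 0.51. The first, from SLC25A27 to OSTM1, holds the fusion targets TFAP2B and BMP5 and the receptor EPHA7, and the second, from MICAL1 to IGF2R, holds PLN. On chromosome 17, 55 genes from MYL4 to SGCA, the HOXB cluster among them, had -0.54 with 22 higher in clone 12. On chromosome 10, 71 genes from GFRA1 to SYCE1 had -0.61, and EMX2, a homeobox factor, was at 3.0 and 3.2 against 126.6 and 138.6. On chromosome 5 from CDK7 to C5orf56, clone 12 was lowest, at -0.45 and -0.38, and the other 6 libraries were between 0.01 and 0.32.

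The genes that separate the clones were then looked up after the fusion protein was targeted. In the PAX3-FOXO1-FKBP line of the series, RNA was taken in DMSO and after 2, 6, 24 and 72 h of dTAG, the small molecule that directs an FKBP-tagged protein to degradation. The authors deposited 1 pooled column per condition, and the shares below leave out the 2 h column. These values therefore have neither replicate error nor a test, and the sources used here do not say which clone the line is. Of the 896 genes at least 2-fold higher in clone 4, 691 had a mean of at least 50 there, as did 637 of the 863 higher in clone 12.

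Genes of the clone 4 side were often lower after dTAG. At 72 h, 156 of the 691 (22.6%) were at least 2-fold lower and 30 (4.34%) at least 2-fold higher, against 3.05% and 3.34% of all 12280 genes. Of the 637 genes of the clone 12 side, 11 (1.73%) were lower and 118 (18.5%) higher. At 24 h, 102 (14.8%) of the clone 4 side were lower and 59 (9.26%) of the clone 12 side higher, against backgrounds of 1.73% and 1.33%. At 6 h the shares were 80 (11.6%) and 31 (4.87%), against 1.24% lower and 0.594% higher over all genes. The shares were not smaller outside the runs of neighbouring genes, at 25.9% lower on the side of clone 4 and 22.8% higher on that of clone 12 at 72 h. All genes outside the runs gave 2.91% lower and 3.24% higher. Without library 1 of clone 4 they were 23.8% and 18.7%. A gene near 0 in the DMSO column cannot be seen to go lower. With genes of at least 100 counts there the shares were 24.0% and 14.4%, against 3.06% and 2.33% of all such genes. The time course is a single line and its part in the clone difference was not tested.

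**Figure D5:**
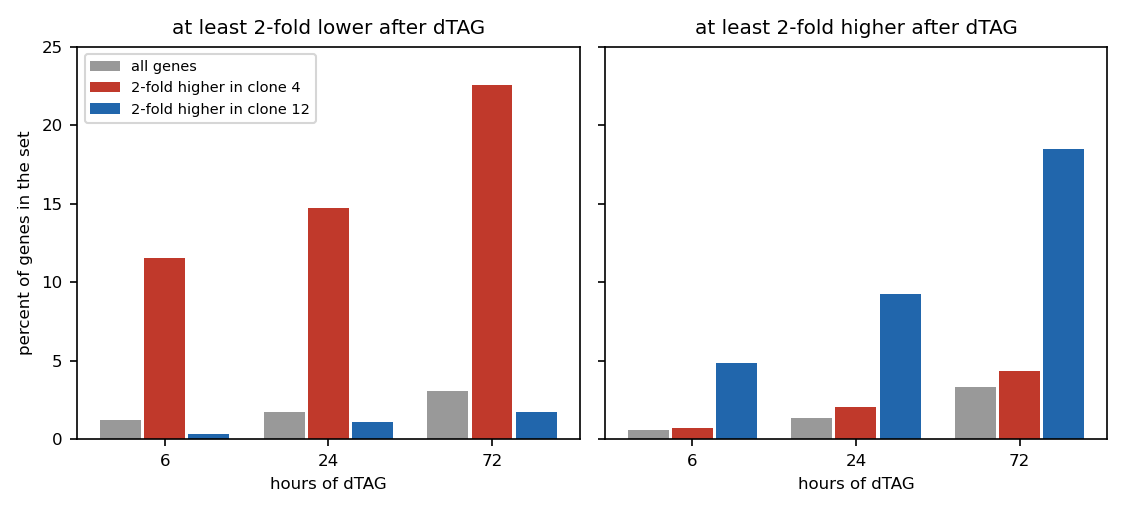
Percent of genes at least 2-fold lower (left) or at least 2-fold higher (right) than DMSO after 6, 24 and 72 h of dTAG, for all 12280 genes (grey) and for those at least 2-fold higher in clone 4 (red) or clone 12 (blue). The red bars on the left reach 22.6% and the blue bars on the right 18.5% at 72 h, with the grey bars at 3.05% and 3.34%.

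Some single genes of both sides showed this order. FOXC2 was at 467.2 in DMSO and at 212.1, 110.4, 119.4 and 107.1 after 2, 6, 24 and 72 h. SEZ6, a neuronal surface protein, was at 445.0 and then at 270.4, 34.2, 23.6 and 39.3, and in the clones at 543.4 and 489.6 in clone 4 against 44.5 and 32.0 in clone 12. IGFBP5 went from 997.0 to 1105, 2488.4, 4693.2 and 4466.8, and COL1A1 from 289.3 to 413.6, 464.2, 529.9 and 1557.3. For these 4 genes the change from DMSO to 72 h had the direction from clone 4 to clone 12. The time course and the clones were scaled separately, so only directions are compared and not levels. Some other large clone differences had no such counterpart: KRT8 was at 79.5 in DMSO and 68.0 at 72 h, PALM, a membrane-shape protein, at 774.4 and 770.1, and ST8SIA2 at 806.0 and 646.1. The other keratins differed from KRT8 here. KRT18 went lower, from 579.5 in DMSO to 281.9 at 72 h, and KRT17 higher, from 4954.7 to 6930.7. SORCS2, with no read in clone 4, was at 801.7 in DMSO. XIRP1 and MEF2C, both higher in clone 4, went the opposite way. XIRP1 rose from 247.9 in DMSO to 1365.7 at 72 h and MEF2C from 1985.7 to 8011.3. PAX3 itself was at 782.5 in DMSO, 484.8 at 2 h and 400.9 at 72 h, and FOXO1 at 3741.7 and 4573.8.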

How the data were processed

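RNA sequencing libraries of tagged Rh30 clones were compared. For the clones, the authors deposited read counts per gene, not normalised, as whole numbers with 1 column per library per the file headers. The time-course table holds estimated counts deposited by the authors, with 1 pooled column per condition per the file headers. Per the submitters' processing notes, Trimmomatic 0.32, Bowtie2, Cuffdiff 2.1.1 and hg19 were used. Their roles, the annotation and the counting tool are not stated by any source used here.

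Counts of 8 libraries (clones 4, 10, 11 and 12) were fitted with edgeR 4.0.16 in R 4.3.3, with 1 mean per clone, TMM factors, the filterByExpr filter (minimum count 10) and quasi-likelihood F tests (4 residual degrees of freedom). The script was tested on simulated data. Genes with a Benjamini-Hochberg adjusted p under 0.05 were called. Log2 differences use edgeR's default prior, and an SE is the difference divided by the root of F. For clones with no reads, folds are bounds against 3 counts per library, and for 1 to 3 reads, ratios have 95% exact binomial intervals. Both cover counting error only. The 2 columns of clone 12 were matched to the clone but not to its replicates 3 and 4 in the labels. Chi-square tests of counts over genes found every pair of libraries of a clone further apart than sampling noise.

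Separate libraries had been assumed for the time course. As the columns are pooled, genes were counted by size alone: 2-fold or more from DMSO, on TMM-scaled counts averaging 50 or more, with a prior count of 2. Genes with any 0 there and no low count among their columns above 0, 41 in number, were left out as failed estimates. Genes truly switched on or off may be among them. Gene order came from RefSeq (GRCh38.p14), and length and GC content from GENCODE v29 for 95.7% of genes, both matched by symbol. No hg19 genome was used, so gene coordinates are not printed. Promoter sequences and their positions are those of RefSeq.

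The comparison and the 42 gene lists were chosen with earlier results of these data known. Named genes are PAX3 and FOXO1, the 12 with the largest difference and the 12 with the lowest p (at least 2-fold) each way among called genes averaging 50 or more, then up to 3 called members of each list and up to 6 genes of each run by lowest p, and the cell markers. Those rankings skip ribosomal protein, histone, microRNA, snoRNA, read-through, antisense and LOC names, XIST and genes of the Y chromosome. Further list members were named after their values were seen, and a few genes that the rule names are not reported here. Alternatives were other scalings, DESeq2 1.42.0, other filters, other library sets, each library left out, other window lengths, a 1.5-fold threshold and, added after seeing the data, offsets for length and GC content and the 3 other sets of time-course genes.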

Additional observations from a re-analysis of the deposited data

How the results depend on the processing

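Across the alternatives, none of the 138 genes named other than through runs changed the sign of its difference. Most of them were picked by the size or p of this same difference, so a kept sign is no test of them. Some were no longer called when 1 library was left out. Leaving out 1 library (leave-one-out) gave 707 to 2287 genes higher in clone 4, 803 to 2006 higher in clone 12, 597 to 1279 at least 2-fold higher in clone 4 and 660 to 1026 at least 2-fold higher in clone 12. A lone library is then assumed to vary like the other clones. Of the 3405 calls, 43.4% to 86.6% were called again with 1 library left out, and 93.3% with DESeq2. With offsets for length and GC content, 91.5% were called again and 1 had the other sign. Windows of 15 genes gave 131 runs and windows of 51 genes gave 31, and no run from windows of 25 genes changed direction under any alternative. The median of 24 of the 67 runs moved by 0.1 or more without library 1 of clone 4, of 13 without library 2 of clone 4 and of 20 with offsets for length and GC content. With 1.5-fold as the threshold at 72 h, 38.5% of the clone 4 side were lower and 29.8% of the clone 12 side higher after dTAG. Over all genes these shares were 8.78% lower and 9.32% higher, above the 3.05% and 3.34% at 2-fold. At 2-fold the shares were 22.6% and 18.5%, 25.9% and 22.8% outside the runs, and 14.4% for the clone 12 side with at least 100 counts in DMSO. The cause of these shifts was not tested. Among other lists, the medians of the muscle contractile, Notch, TGF-beta, extracellular matrix, epithelial, blood and endothelial lists changed sign when 1 library was left out, so their medians are given no direction. No paired analysis was possible because the clones compared share no replicate numbers in the labels (1 and 2 against 3 and 4). Genes that did not reach about 10 counts in at least 2 of the 8 libraries were not tested, and counting error limits folds near 0.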
